A study of Mus musculus with 32 samples.

Results

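The kidney of the newborn mouse was compared between day 1 and day 3 of life. The comparison used the arrays whose sample titles start with P03 (postnatal day 3, 4 arrays) and those that start with P01 (postnatal day 1, 3 arrays), which are 7 of the 32 arrays of a series running from embryonic day 19 (E19) to postnatal day 35. Every array carried normal kidney RNA of C57BL/6 mice, an inbred laboratory strain, labelled with Cy5, against a universal mouse reference RNA labelled with Cy3. A protocol text attached to the samples describes ureteral obstruction and sham surgery, but the source names give normal kidney, and these were followed. The labels do not say whether the arrays of a stage came from separate animals, so p-values measure the spread between arrays, which may be technical.

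At birth the mouse kidney is still forming nephrons. A cap of progenitor cells, marked by Six2 and Cited1, surrounds the tips of the branching ureteric bud and gives rise to new nephrons until the progenitors are used up in the first days of life. Over the same days the pup lives on milk, which is rich in fat, and the proximal tubule takes up its adult work of transport and metabolism.

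Each value is the log2 ratio of kidney RNA to the reference RNA for a gene, and a difference is P03 minus P01 on that scale. The unit was read as log10 from the range of the deposited values (-3.25 to 4) and converted. The direction was read from kidney genes: on the 7 arrays, proximal tubule transport genes had median log2 ratios of 4.55 to 5.80 and podocyte genes of 2.64 to 3.21. An array measured 16479 to 17701 genes, 15970 of them on all 7, and correlations between these arrays over genes ran from 0.845 to 0.960. No depth applies to arrays, and their number limits the precision. The arrays fall into image runs, sets of consecutive image numbers in the labels. P01 array 1 and P03 array 2 lie in run 1 and the other 5 in run 3. Of 15149 genes, 9862 (65.1%) differed between runs with the stage means in the model. Values with the run as a block therefore stand beside many results. Within run 3, counts and a few differences are given.

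The arrays of the 2 stages also differed in sex-linked and fat-cell genes. Xist, the RNA that silences one X chromosome in females, had log2 ratios of 2.56, 2.42 and 2.07 on the P01 arrays and of -5.51, -5.91, 2.36 and -5.45 on P03 arrays 1 to 4. Eif2s3y, a gene of the Y chromosome, had -8.11, -7.25 and -6.72 at P01 and 2.40, 1.94, -4.77 and 1.80 at P03. P03 array 3 thus lay with or nearest the P01 arrays on both genes, and the other 3 P03 arrays lay far from them. Adipoq, a hormone of fat cells, had -0.37, -1.47 and -1.15 at P01 and 4.45, 3.04, 0.22 and 5.48 at P03. Of 7 adipose genes tested, 6 were higher at P03, with list medians of 0.68 to 1.73 on the P01 arrays and 1.58 to 5.67 on the P03 arrays. Age and sex therefore cannot be told apart on these arrays except through P03 array 3, and the part of adipose tissue in the results was not tested beyond a fit with its list median as covariate. In whole kidney, fewer cells of a type and less RNA per cell cannot be told apart.

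**Figure D1:**
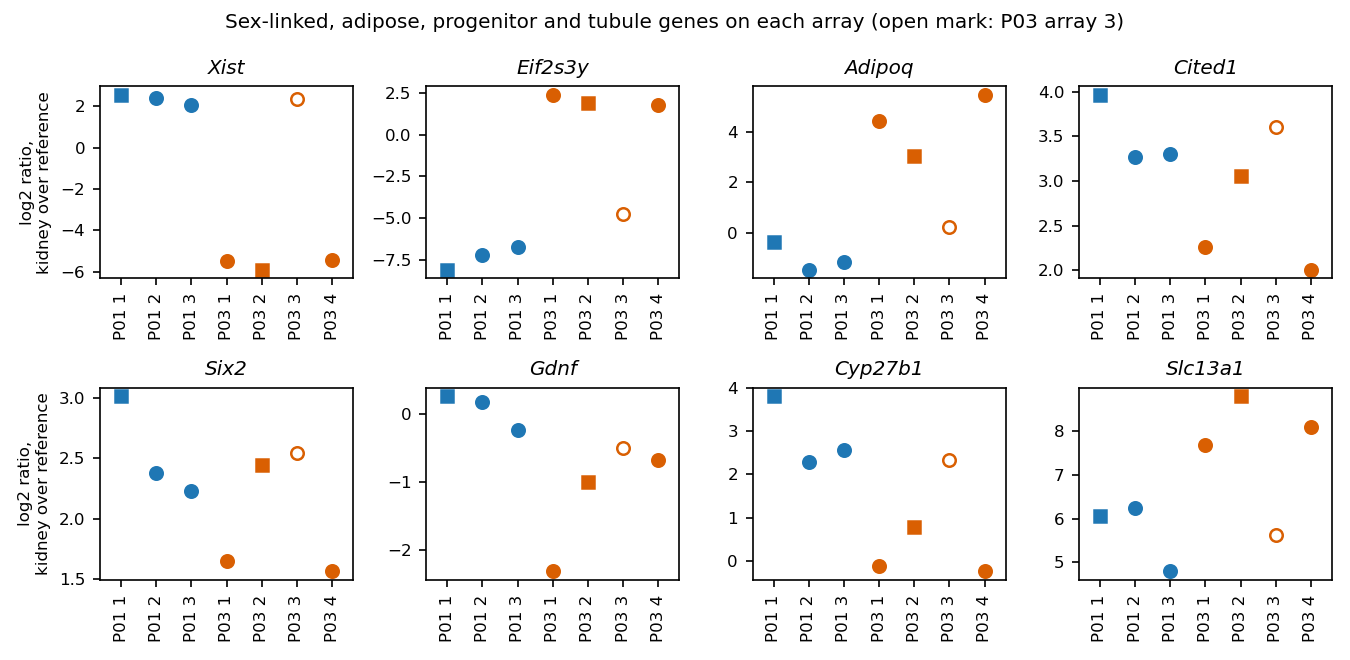
Log2 ratio of kidney to reference RNA on each of the 7 arrays for 8 genes chosen after their values were seen; blue marks are P01, orange marks P03, squares image run 1 and circles run 3. P03 array 3, the open mark, lay within the range of the P01 arrays for Xist, Cited1, Six2, Cyp27b1 and Slc13a1. It lay outside that range for Gdnf, Adipoq and Eif2s3y.

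Few genes passed the main test between day 1 and day 3. With 3 and 4 arrays this does not show that few changed. Of 16954 genes tested, 13 (0.0767%) passed limma's moderated test at an adjusted p of 0.05, of which 9 (0.0531%) rose and 4 (0.0236%) fell. The balance of directions was not the same in every fit: 6 rose and 8 fell when each gene was read from its most variable probe, with 7 of the 13 genes shared, and 32 rose and 48 fell without P01 array 2. The median difference over all genes was 0.01, with quartiles of -0.21 and 0.23. The genes that rose were Cyp4a14, Ces1f, Tcea3, Aoah, Khk, C130050O18Rik, Tesc, Tbxas1 and Bcs1l. The genes that fell were Tfcp2, Kcne2, Unc93a and Aldoc. At an unadjusted p under 0.05, 731 genes (4.31%) were higher and 635 (3.75%) lower.

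The promoters of Khk, Tesc and Tfcp2 are shown because these 3 genes had the lowest adjusted p. The windows run from 250 bases before to 50 bases after the start of the gene, from RefSeq on GRCm38.p6, and 11 of the 13 genes have one in that table. Khk lies at chr5:30921309-30921608 (+ strand), Tesc at chr5:118027493-118027792 (+ strand) and Tfcp2 at chr15:100551959-100552258 (- strand). Capitals mark matches on either strand to the E-box CACGTG, the CCAAT box, the nuclear receptor element AGGTCA and the TATA box TATAAA, motifs picked after the genes were known. No 2 motifs overlap in these windows.
Khk: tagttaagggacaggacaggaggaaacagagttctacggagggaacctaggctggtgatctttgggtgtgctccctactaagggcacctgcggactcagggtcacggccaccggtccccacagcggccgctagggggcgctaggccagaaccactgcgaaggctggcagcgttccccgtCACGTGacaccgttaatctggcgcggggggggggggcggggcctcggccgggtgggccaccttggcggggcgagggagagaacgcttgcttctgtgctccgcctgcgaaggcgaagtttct
Tesc: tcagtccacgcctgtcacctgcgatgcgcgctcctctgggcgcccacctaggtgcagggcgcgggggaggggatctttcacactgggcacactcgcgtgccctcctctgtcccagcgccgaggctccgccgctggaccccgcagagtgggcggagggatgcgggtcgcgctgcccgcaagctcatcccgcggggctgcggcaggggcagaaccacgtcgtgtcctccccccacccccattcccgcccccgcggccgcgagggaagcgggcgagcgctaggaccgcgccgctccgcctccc
Tfcp2: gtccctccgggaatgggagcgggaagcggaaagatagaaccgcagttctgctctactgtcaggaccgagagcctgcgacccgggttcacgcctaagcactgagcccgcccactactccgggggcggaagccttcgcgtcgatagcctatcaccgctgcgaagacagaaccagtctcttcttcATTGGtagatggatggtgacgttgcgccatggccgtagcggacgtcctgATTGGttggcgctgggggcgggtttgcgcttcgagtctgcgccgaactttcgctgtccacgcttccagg
Khk held 1 match to CACGTG, a motif found in 7.15% of 32851 promoter windows. Tfcp2 held 2 matches to CCAAT, found in 37.4% of windows. Tesc held none of these motifs. The element AGGTCA occurs in 16.3% of windows and the TATA box in 13.6%, and neither was in the windows shown. A match describes letters in the window and is not a binding site.

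Cyp4a14, a fatty acid omega-hydroxylase, had the largest rise of the 9 genes. Its log2 ratios were 5.51, 6.02 and 7.22 at P01 and 8.18, 9.35, 8.21 and 8.43 at P03. Every P03 array lay above every P01 array. The difference was 2.29 ± 0.44 (SE), a 4.90-fold rise (limma adjusted p = 0.0481; 0.00627 with the run as a block). Within run 3 the difference was 1.65. The gene had also risen over birth, from a mean of 2.75 at E19, and lay at 8.21 at P05. Ces1f, a carboxylesterase, had 2.63, 3.85 and 4.35 at P01 and 5.11, 5.74, 4.78 and 5.20 at P03, again without overlap, and rose by 1.60 ± 0.31 (limma adjusted p = 0.0481).

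Khk, ketohexokinase, which takes the first step of fructose breakdown, had log2 ratios of 0.87, 1.23 and 0.69 at P01 and 2.30, 2.23, 1.68 and 2.13 at P03. The stages did not overlap, and P03 array 3 was the lowest of its stage. The rise was 1.16 ± 0.19, or 2.23-fold (limma adjusted p = 0.0367; 0.00293 with the block), and both probes of the gene gave it, at 1.16 and 1.15. The stage mean stood at 0.61 at E19, 2.09 at P03 and 4.07 at P35. Beside it, in values chosen after they were seen, Tkfc, the triokinase of the same pathway, had a difference of 0.95 ± 0.23 (limma adjusted p = 0.119; 0.0158 with the block), and Pcx, pyruvate carboxylase, of 1.06 ± 0.32 (0.221 and 0.0117). Slc2a5, the fructose transporter GLUT5, had 0.05 ± 0.25 (limma adjusted p = 0.988).

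Aoah, which removes acyl chains from bacterial lipopolysaccharide, had 0.26, 1.45 and 1.46 at P01 and 2.31, 2.68, 1.97 and 2.52 at P03. Tbxas1, thromboxane synthase, had 2.73, 2.81 and 2.23 at P01 and 3.59, 3.98, 3.30 and 3.29 at P03. Neither gene overlapped between stages, and they rose by 1.31 ± 0.26 and 0.95 ± 0.19 (limma adjusted p = 0.0481 for both). The macrophage list did not move with them past the test: 7 of its 8 tested genes were higher at P03 and 0 passed, with a median of 0.25.

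Tesc, a calcium-binding partner of a sodium-proton exchanger, had -0.11, -0.11 and -0.77 at P01 and 0.75, 0.64, 0.51 and 0.66 at P03, a rise of 0.97 ± 0.17 (limma adjusted p = 0.0367; 0.00371 with the block). Bcs1l, an assembly factor of respiratory complex III, rose by 0.79 ± 0.16 (limma adjusted p = 0.0481), and its P03 arrays lay within an SD of 0.04. Tcea3, a transcription elongation factor, rose by 1.45 ± 0.28, though P03 array 3 at 1.06 lay below P01 array 2 at 1.13. C130050O18Rik rose by 1.00 ± 0.20 without overlap.

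Tfcp2, a transcription factor, had 0.36, 0.80 and 1.68 at P01 and -1.96, -1.21, -0.49 and -1.32 at P03. The stages did not overlap. It fell by 2.19 on the log2 scale (SE 0.38, limma adjusted p = 0.0367; 0.00359 with the block), but its probes differed in size, at -3.78 and -0.60, the second with an unadjusted p of 0.126. Kcne2, an accessory subunit of potassium channels, had 0.86, 0.01 and 1.61 at P01 and -1.20, -1.70, -0.75 and -1.75 at P03. It fell by 2.18 (SE 0.42, limma adjusted p = 0.0481) without overlap. Aldoc, aldolase C, fell by 1.17 (SE 0.23), with probes at -1.76 and -0.58. Unc93a fell by 2.56 (SE 0.51), with P01 array 2 at -1.34 beside P03 array 4 at -1.33, so its stages overlapped.

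**Figure D2:**
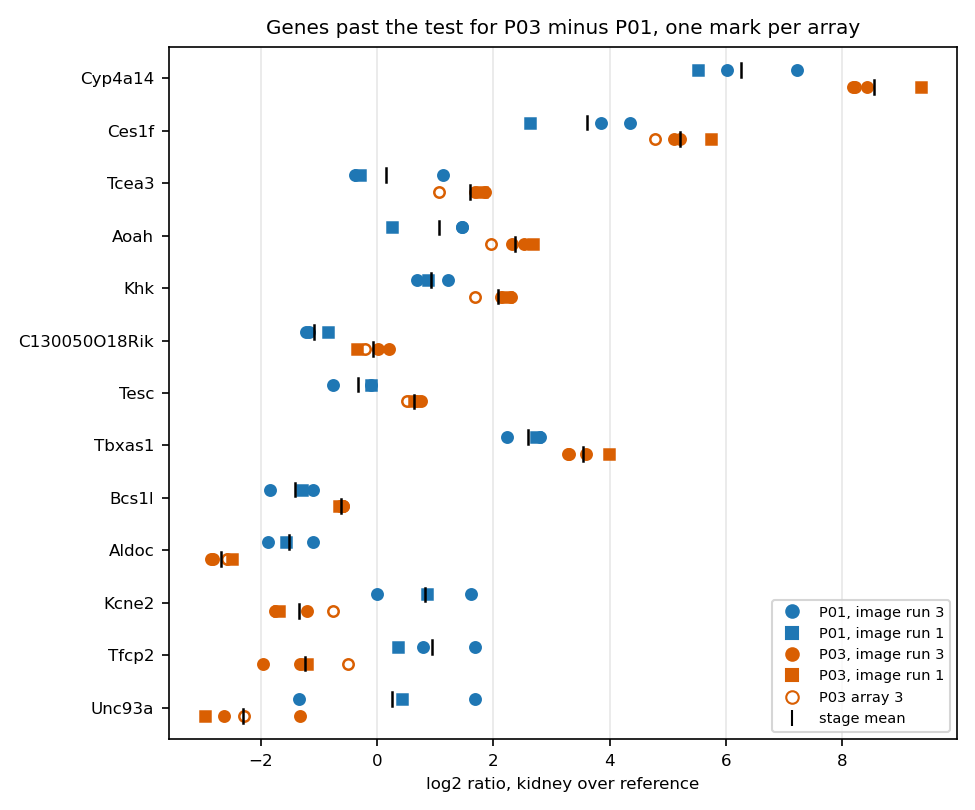
Log2 ratio of kidney to reference RNA for the 13 genes past the test, one mark per array, with blue for P01, orange for P03, squares for image run 1, an open circle for P03 array 3 and a black bar for the stage mean. The marks of the stages are apart for 11 of 13 genes and overlap for Tcea3 and Unc93a.

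The calls rested on few arrays and on the spread shared with the other stages. In a fit to the 7 arrays alone, 0 genes passed by limma (1083 at an unadjusted p under 0.05). With the image run as a block, 272 genes passed (1.6%), of which 186 rose (1.1%) and 86 fell (0.507%), including all 13. Within run 3 alone, 2 P01 arrays against 3 P03 arrays, 0 passed by limma (1591 at an unadjusted p under 0.05), while all 13 kept their direction and an unadjusted p under 0.05. In run 1, with 1 array a stage, all 13 also pointed the same way. The 13 genes were chosen on these same 7 arrays. Their direction and unadjusted p in fits to part of these arrays or with a covariate are therefore no separate support. With Xist as a covariate 0 passed (1022 at an unadjusted p under 0.05), and the 13 genes kept their direction with adjusted p of 0.189 to 0.245. Leaving out P01 array 1, or P03 array 1, 2 or 4, left 0 genes, leaving out P01 array 3 gave 3 calls, 2 of them among the 13 (Ces1f and Cyp4a14) and Tmigd1, and leaving out P01 array 2 or P03 array 3 gave 80 and 22. With the adipose list median as covariate 1 gene passed, Adipoq, and all 13 genes had an unadjusted p under 0.05.

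Over all genes measured on every array, the stages did not overlap for 693 with higher P03 values (4.34% of 15970) and for 566 with lower (3.54%). This is the background for the list counts below.

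**Figure D3:**
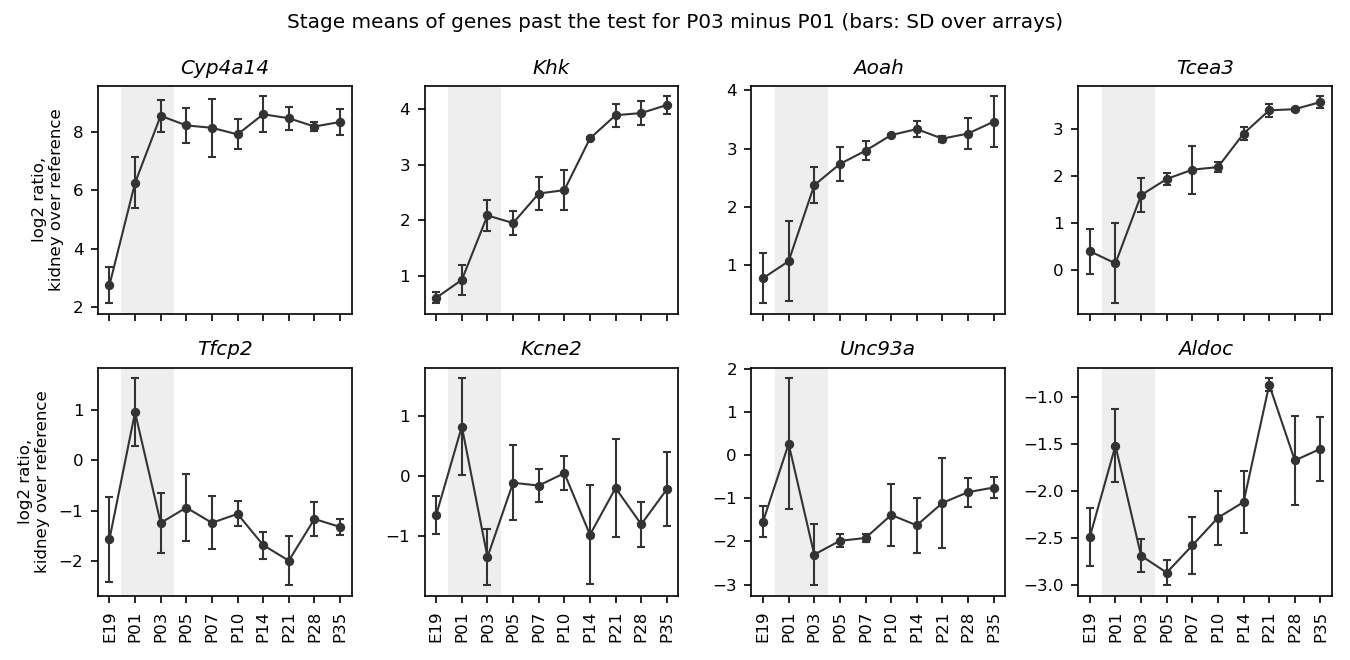
Mean log2 ratio of kidney to reference RNA at each of the 10 stages, with bars for the SD over arrays, for 8 genes past the test; the grey band holds P01 and P03. Cyp4a14 was near its later level by P03, Khk went on to 4.07 at P35, and Tfcp2 and Kcne2 stood highest at P01.

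In the gene lists, chosen by pathway and cell type, only Cyp4a14 (in the PPAR alpha response list) and Khk (glucose and amino acid metabolism) passed the main test. Fatty acid oxidation and ketogenesis had 13 of 17 genes higher, 0 past the test and a median of 0.25, against 0.01 over all genes. Its array medians were 1.03 to 1.18 at P01 and 1.30 to 1.46 at P03, without overlap. Such a gap says little of the genes in a list: array medians were apart for 4 of 49 lists, among them the podocyte list (3.10 to 3.21 at P01, 2.64 to 2.87 at P03), whose median difference was -0.0020. With the run as a block, 3 members passed: Ech1 (0.79), Acaa1b (0.81) and Acaa2 (0.50), enzymes of fatty acid breakdown. Their main differences were 0.80 ± 0.22, 0.77 ± 0.23 and 0.53 ± 0.22. Of the PPAR alpha genes, 9 of 12 were higher, 1 passed, and the median was 0.39. That median was 0.15 with the adipose covariate and 0.16 with Xist as covariate. Cidec, at 1.81, is also in the adipose list.

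Cholesterol synthesis had the opposite sign. Of 13 genes, 12 were lower at P03 and 0 passed the test, with a median of -0.41. Array medians were -0.56 to -0.39 at P01 and -1.06 to -0.75 at P03, and 4 members (Sqle, Fdps, Lss and Insig1) did not overlap between stages. Fdps, farnesyl diphosphate synthase, had a difference of -0.41 ± 0.16 (limma adjusted p = 0.438), and Cyp51, a sterol demethylase, of -0.54 ± 0.24 (0.534). Dhcr7, a late enzyme of the pathway, was the exception at 0.08. Oxidative phosphorylation had a median of 0.06, with 12 of 20 genes higher, and glycolysis and hypoxia response of -0.15, with 5 of 17 higher.

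Nephron progenitor genes had 10 of 14 lower at P03 and 0 past the test, with a median of -0.13. Six2 had 3.01, 2.38 and 2.23 at P01 and 1.65, 2.44, 2.54 and 1.57 at P03, a difference of -0.49 ± 0.38 (limma adjusted p = 0.847). Cited1 had 3.97, 3.27 and 3.31 at P01 and 2.26, 3.06, 3.60 and 2.00 at P03, a difference of -0.78 ± 0.34 (0.527). The stages overlapped on both. Gdnf, the growth factor of the cap for the ureteric bud, did not overlap, with 0.26, 0.18 and -0.24 at P01 and -2.31 to -0.50 at P03, but missed the test (-1.18 ± 0.35, limma adjusted p = 0.194). Eya1, a progenitor regulator, passed with the block only (-0.86 ± 0.17, adjusted p = 0.0123). The 4 progenitor genes that were higher at P03 were Pax2 (0.57 ± 0.43), Dpf3 (0.28), Itga8 (0.26) and Crym (0.03). Wnt4 and Lhx1, genes of the early nephron, had 0.24 ± 0.46 and 0.40 ± 0.39. Mitosis genes were higher for 14 of 16, with 0 past the test and a median of 0.34, and imprinted growth genes lower for 10 of 12, with a median of -0.23.

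Of the proximal tubule transport genes, 31 of 37 were higher, 0 passed and the median was 0.23 (0.11 within run 3). With the block, Slc13a1, a sulfate transporter, and Slc47a1, an exporter of organic cations, passed at 1.95 and 0.66. Slc13a1 had 6.07, 6.25 and 4.80 at P01 and 7.69, 8.80, 5.63 and 8.08 at P03, so P03 array 3 lay among the P01 arrays. Intercalated cell genes were higher for 11 of 14, with a median of 0.35 (0.44 within run 3). Slc26a4 (pendrin) and Atp6v1b1 (a proton pump subunit) passed with the block at 0.77 and 1.07. Cyp27b1, which activates vitamin D, had 3.80, 2.28 and 2.56 at P01 and -0.11, 0.79, 2.33 and -0.24 at P03 (-2.19 ± 0.58, limma adjusted p = 0.149; 0.0383 with the block), and again P03 array 3 lay with P01. Glucocorticoid response genes were lower for 11 of 11, with a median of -0.24 that became 0.09 without P01 array 3.

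**Figure D4:**
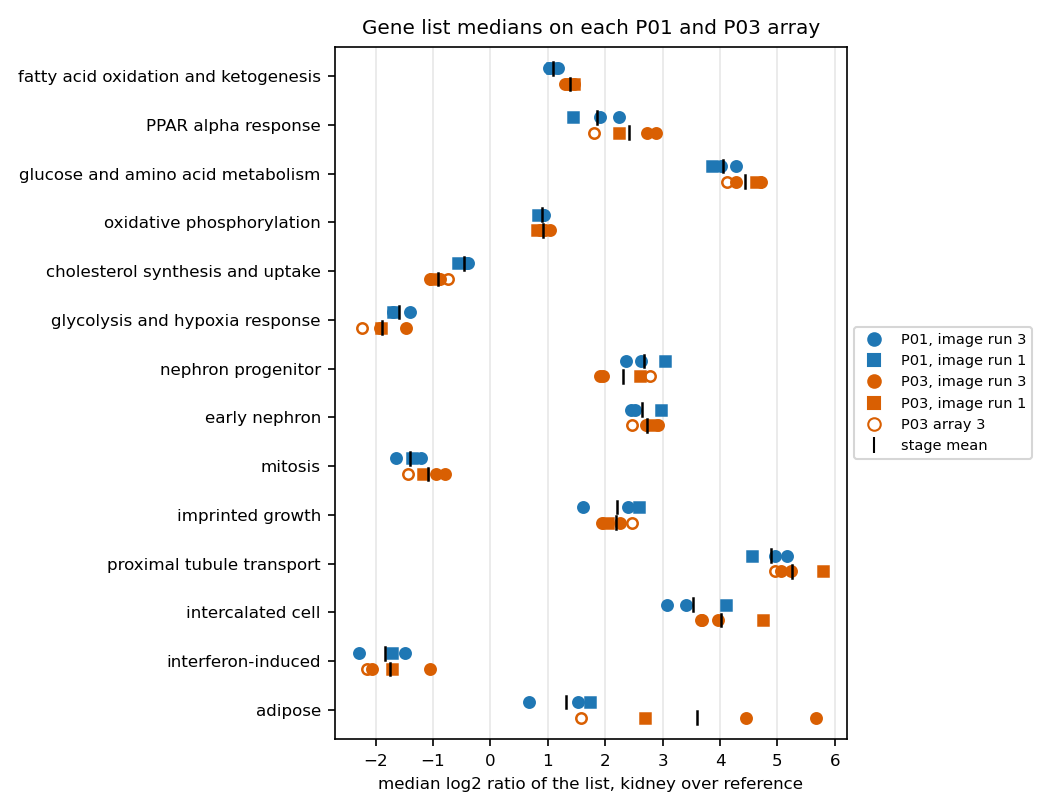
Median log2 ratio of 14 gene lists on each array, blue for P01, orange for P03, squares for image run 1, an open circle for P03 array 3 and black bars for stage means. Fatty acid oxidation and cholesterol synthesis were apart between stages, and the nephron progenitor, proximal tubule and mitosis lists overlapped.

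The step from P01 to P03 was set against the step over birth, from E19 to P01, with the difference of the 2 steps tested. These steps share the P01 arrays, so a value that is high or low at P01 moves both. Of 16880 genes, 94 (0.557%) differed, with 47 (0.278%) turning down after P01 and 47 (0.278%) turning up. All 47 of the first kind were higher at P01 than at E19 and lower at P03, and all 47 of the second kind the reverse. Of the 94, 77 also passed for P01 minus E19 (246 of 16985, 1.45%), and 7 for P03 minus P01. Among the first kind were Tfcp2 (2.52 over birth, -2.19 after), Cirbp, a cold-inducible RNA-binding protein (2.24 and -0.78), and Agtr1a, an angiotensin receptor (1.22 and -0.80). Among the second were Lum, lumican of the matrix (-3.17 and 1.09), Myh3, an embryonic muscle myosin (-2.77 and 0.97), and Isg15, an interferon-induced gene (-2.19 and 0.15). Myh3 is in the skeletal muscle list, whose median was -0.78 over birth and 0.26 after. The part of muscle tissue in these values was not tested. The sex-linked list, with 4 genes tested, had a median of -1.53 over birth and 4.04 after. The part of sex in the turning genes was not tested beyond a fit with Xist as covariate, in which 48 of 16880 genes passed. Isg15 was near level from P01 to P03: its arrays read -2.63, -2.75 and -2.96 at P01 and -2.46, -2.38, -2.85 and -2.81 at P03. Its stage mean was -2.27 at P05 and -1.75 at P07. With the run as a block 542 genes passed (3.21%), 273 turning up (1.62%) and 269 down (1.59%), and without P01 array 3 the count was 6, among them Cirbp. In a fit to the 10 arrays of E19, P01 and P03 alone, 0 genes passed by limma (1470 at an unadjusted p under 0.05).

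**Figure D5:**
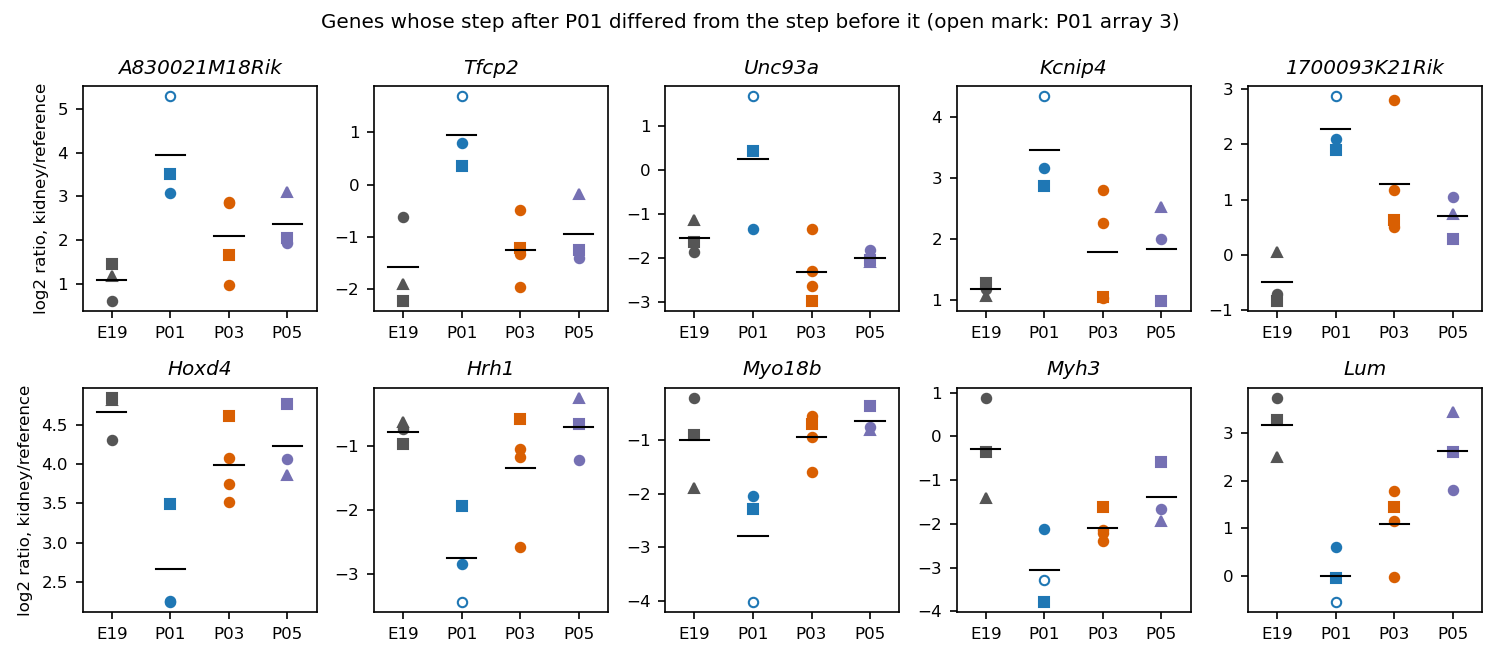
Log2 ratio of kidney to reference RNA on the arrays of E19, P01, P03 and P05 for the 5 genes with the largest turn in each direction, with squares, triangles and circles for image runs 1, 2 and 3, black lines for stage means and an open mark for P01 array 3. That array was the most extreme P01 array for several of these genes.

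After P03 few genes passed. With 4 arrays at P03 and 3 at P05, this does not show that few changed. The sex-linked list had a median of -2.40 for P05 minus P03. For P05 minus P03, 0 of 16908 genes passed limma's test (492 at an unadjusted p under 0.05) and 3 passed with the block (0.0177%). For the 13 genes, the values of P05 minus P03 ran from -0.33 for Cyp4a14 to 1.24 for Kcne2. No gene of 16753 had a step from P03 to P05 that differed from the step before it past the test (540 at an unadjusted p under 0.05; 1 with the block, 0.00597%).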

How the data were processed

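The deposited values are 1 log10 ratio per probe and array, made by the authors. How spots were extracted and normalized is not given in the sources used here. Both the log10 unit and the direction were read from the values. Exact zeros (12.9% to 21.4% of values on an array) were treated as not measured. Of 45220 probes, 33653 had 1 gene symbol. Probes of a gene measured on all 32 arrays were averaged. A gene without such a probe took its probe measured on most arrays. This gave 18999 genes, some of them with missing values. Values were converted to log2. A limma 3.58.1 model (R 4.3.3) with 1 mean per stage was fitted to all 32 arrays, with Benjamini-Hochberg adjustment over all genes tested and a threshold of 0.05. Genes needed 2 arrays in each stage. Scripts were tested on simulated data. Figures used matplotlib 3.10.9. The members and gene lists were chosen with earlier results of these data known. Named genes are the 15 largest changes past the test in each direction, the 5 largest of each contrast of steps, up to 4 members of each list past the test (otherwise the 2 with the lowest p) and a fixed set. List members named for the block, the cholesterol genes other than Fdps and Cyp51, Tkfc, Pcx, Slc2a5, Tmigd1 and Cirbp were chosen after their values were seen. So were Cidec and the progenitor genes that were higher (Pax2, Dpf3, Itga8 and Crym). The image run as a block, covariates, other normalizations and leaving out single arrays were the alternatives. All 13 genes past the test are named, including Tcea3 and Unc93a, whose arrays overlap. Ren1 had no value.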

Additional observations from a re-analysis of the deposited data

Results flagged for a closer look

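Single arrays stood apart for 8 of 148 named genes among the 4 P03 arrays, by the gap to the nearest array relative to the range (Dixon's test), which chance alone gives for about 1 in 20 groups. On P03 array 2, the only P03 array in image run 1, these were Hes5 (log2 ratio 4.21), Kcnj10 (7.09), Scnn1b (5.37), Mcm5 (-0.74) and Lhx1 (5.83). Alb, the liver's albumin, was low on P03 array 1 at 0.59. On P03 array 3, Eif2s3y was at -4.77 and Xist at 2.36.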

How the results depend on the processing

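No paired analysis was run, because the labels do not link the arrays of a stage to those of another stage. The count of 13 genes became 0 with only the 7 arrays, 0 within image run 3, 0 with Xist as covariate, 1 with the adipose covariate, 3 with the mean of all probes, 3 with a trended and robust prior, 32 with quantile normalization, 134 with array weights, 272 with the run as a block and 45 with block and Xist. Leaving out single arrays gave 0 to 80, and with the block 32 to 791 for P01 arrays (78 without array 1, 791 without array 2, 32 without array 3). The 94 genes that turned at P01 became 0 with only the 10 arrays of the 3 stages, 5 within run 3, 48 with Xist, 193 with quantile normalization, 801 with array weights, 542 with the block and 264 with block and Xist. Leaving out single arrays gave 6 to 147 (6 without P01 array 3, 147 without P01 array 2, 45 without P03 array 2), and with the block 29 to 934 (225 without P01 array 1). The 0 genes with unequal steps after P03 became 1 with the block, array weights, quantile normalization, or block and Xist, and 1 to 6 with the block and a P01 array left out (2 without array 1). The cause was not tested. The adipose and Xist with block fits, and the block without single P01 arrays, were chosen after seeing the data.

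Differences that changed sign were those of Fibin (0.13), Chil3 (0.028), Krt20 (0.057) and Angptl4 (-0.071) with array weights, of Plce1 (0.22) and Fsip1 (0.036) with the most variable probe, of Alb (0.035), Angptl4 (-0.023) and Slc2a5 (-0.19) with Xist, of Stmn2 (0.015) and Slc2a5 (-0.22) with block and Xist, of Slc2a5 (-0.063) with quantile normalization, and of Fga (0.021, without P01 array 3) and Slc2a5 (-0.020, without P01 array 2) with the block. Leaving out single arrays gave ranges across 0: Kcnj10 from -0.073 (without P01 array 2) to 0.57, Umod from -0.020 (without P01 array 2) to 0.42, Slc2a5 from -0.015 (without P03 array 3; -0.0054 without P01 array 2) to 0.16, Alb from -1.06 to 0.24 (without P03 array 1), Wnt4 from -0.15 (without P01 array 3; -0.052 without P03 array 2) to 0.68, and Egf from -0.081 (without P01 array 1) to 1.19. Over 24 alternatives the list medians ran from -0.54 to -0.30 for cholesterol synthesis (lowest without P01 array 1, highest without P01 array 3), 0.12 (array weights) to 0.36 (block without P01 array 2) for fatty acid oxidation, 0.15 (adipose covariate) to 0.64 (block without P01 array 2) for PPAR alpha response, 0.12 (array weights) to 0.54 (block without P01 array 2) for mitosis, 0.078 (without P03 array 2) to 0.37 (block without P01 array 3) for proximal tubule transport, 0.19 (without P03 array 2) to 0.61 (without P01 array 1) for intercalated cell, 0.090 (without P01 array 2) to 0.43 (without P01 array 1) for macrophage, -0.36 (without P01 array 3) to -0.078 (block and Xist) for imprinted growth, -0.28 (without P01 array 3) to -0.00021 (without P01 array 1) for nephron progenitor and -0.30 (Xist) to -0.038 (without P03 array 3) for glycolysis and hypoxia response. Those of oxidative phosphorylation, -0.13 (without P01 array 1) to 0.11 (without P03 array 2), and glucocorticoid response, -0.75 (block without P01 array 2) to 0.086 (without P01 array 3), crossed 0. None of the genes that changed sign had passed the test.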
